A study of Homo sapiens with 24 samples.

Results

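The comparison described here is the medium dose of a hot water extract of Schisandrae Fructus (WESF) against its vehicle, in 6 of the 24 RNA-seq libraries of the series. Schisandrae Fructus (SF) is the dried fruit of a Schisandra vine used in East Asian medicine. SW1783, an established human astrocytoma cell line, received 3 doses of WESF (batch A) or of an ethanol extract (EESF, batch B), each with its own vehicle. The purpose was to ask how the extracts differ in their effect on energy metabolism. The groups were set by GEO's labels, as the 3 libraries labelled WESF medium dose (100 µg/mL for 24 h) and the 3 libraries labelled vehicle of batch A (vehicle A, 0.1% DMSO for 24 h). WESF at the low dose (20 µg/mL, 24 h, 3 libraries) served as the reference for which genes change first, and the high dose (500 µg/mL, 24 h, 3 libraries) shows where those genes went next. All of these libraries come from 1 cell line, for which the labels name no engineered change, and nothing states that the 3 replicates of a group were separate cultures, so the p-values measure only the spread between these libraries, which may be technical.

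The total expected count was 26447834 to 28461841 per library for vehicle A and 23728933 to 25276388 for the medium dose. The astrocyte label was checked against marker genes. The mature astrocyte markers GFAP (2 to 6 counts per library), S100B (0 to 3), ALDH1L1 (0 to 4) and AQP4 (0 in all 6) were at or near 0. GJA1, the astrocytic gap junction protein connexin 43, had 4720 to 5729 counts, SOX9, a glial transcription factor, 1586 to 2342, and SLC1A3, a glial glutamate transporter, 551 to 931. Of the neural stem or glioma markers, the intermediate filament VIM had 112114 to 132291 counts and the hyaluronan receptor CD44 63662 to 79909, while SOX2 (0 to 2) and FABP7 (0 to 1) were near 0. The mesenchymal collagen gene COL1A1 had 88003 to 105610 counts. Markers of other cell types were mixed. AIF1 and P2RY12 of microglia had 0 counts in each of the 6 libraries, but the lysosomal protein CD68 had 4500 to 5154, PTPRC 197 to 295 and CSF1R 63 to 104. In the oligodendrocyte lineage MOG had 0 counts, and CSPG4 had 4711 to 5200, PDGFRA 403 to 549 and MBP 167 to 208. The neuronal genes TUBB3 (2586 to 2957), SNAP25 (628 to 762) and SYT1 (433 to 720) and the epithelial keratins KRT18 (2802 to 3594) and KRT8 (359 to 476) were at levels like those of SOX9 and SLC1A3, while STMN2 (0 to 3) and EPCAM (0 to 2) were near 0.

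By way of background, cells tune gene expression to the sugar, lipid and oxygen they are given. TXNIP is a textbook readout of glucose supply: it is an arrestin-domain protein that binds thioredoxin and removes glucose transporters from the cell surface, and its gene is switched on by the sugar-sensing transcription factors MondoA and ChREBP with their partner MLX. Other arms respond to oxidants (NRF2), amino acid shortage (ATF4), sterol level (SREBF2) and low oxygen (HIF), and WNT receptors, integrins and secreted chemokines set how a cell talks to its neighbours.

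For 3 genes that rose, the 250 bases before the start annotated by RefSeq are shown 5′ to 3′ on the gene's strand. Whether this stretch had a part in the rises was not tested. Sequences are from RefSeq on GRCh38.p14: TXNIP chr1:145996580-145996829, minus strand, ARRDC4 chr15:97960453-97960702, plus strand, and CXCL8 chr4:73740319-73740568, plus strand. In TXNIP the capitals mark 1 match to a carbohydrate response element, searched as 2 copies of CACGNG 5 bases apart,, 88 bases before the start. In ARRDC4, an arrestin-domain relative of TXNIP, they mark the E-box CACGTG, 210 bases before the start, and in CXCL8 the AP-1 motif TGANTCA, 137 bases before the start. The ARRDC4 stretch also holds 1 match to the AP-1 motif, which is left in small letters. Matches to the other motifs counted below are left unmarked too, among them 1 to the NF-kB motif in the CXCL8 window.
TXNIP: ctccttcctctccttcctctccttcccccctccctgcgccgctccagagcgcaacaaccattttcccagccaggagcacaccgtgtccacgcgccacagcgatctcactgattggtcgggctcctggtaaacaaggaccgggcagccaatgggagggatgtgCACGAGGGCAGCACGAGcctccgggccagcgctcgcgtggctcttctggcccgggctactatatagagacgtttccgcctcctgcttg
ARRDC4: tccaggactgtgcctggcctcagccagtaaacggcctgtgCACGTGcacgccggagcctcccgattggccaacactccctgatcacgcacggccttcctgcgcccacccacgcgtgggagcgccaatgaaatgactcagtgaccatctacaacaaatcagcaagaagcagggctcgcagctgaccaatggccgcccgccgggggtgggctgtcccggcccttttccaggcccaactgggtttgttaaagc
CXCL8: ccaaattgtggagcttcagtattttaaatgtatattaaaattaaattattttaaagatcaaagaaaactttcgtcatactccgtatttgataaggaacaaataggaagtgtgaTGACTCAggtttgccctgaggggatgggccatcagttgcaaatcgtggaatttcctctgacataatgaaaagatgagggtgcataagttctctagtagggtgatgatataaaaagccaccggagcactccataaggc

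Both strands were searched over 15638 windows of 300 bases (250 before and 50 after the start) that belong to genes tested here. The carbohydrate response element, which was looked for after the windows had been seen, was in 16 windows (0.102%), and the AP-1 motif in 5.42%. The E-box CACGTG was in 9.18% of those windows and in 3 of the 47 windows of the 26 DEGs that had one. In those 47 windows the AP-1 motif was in 5, the antioxidant response element TGACNNNGC in 6 (14.2% of all windows), the C/EBP-ATF element TGATGNAAN in 2 (1.95%) and the TEAD motif GGAATG in 5 (11.5%). The short or loose motifs were common: the xenobiotic response element GCGTG was in 13 of 47 (47.8% of all windows), the NF-kB motif (GGG and CC 5 bases apart) in 20 (71.3%) and the SRF motif (CC and GG 6 bases apart) in 36 (88%). E-boxes and the carbohydrate response element can overlap, and a match is a run of letters, not a measured binding site.

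At the medium dose, 36 of 13112 protein-coding genes tested were differentially expressed genes (DEGs), here an adjusted p under 0.05 in edgeR's quasi-likelihood test with a fold change above 1.5, which is 0.275% of the genes. Of these, 12 rose and 24 fell. Without the fold threshold, 248 genes rose (1.89% of those tested) and 289 fell (2.2%), and their median absolute log2 fold change was 0.263, so most of the response was of small size. These counts moved with single libraries: 29 rose and 43 fell without WESF medium replicate 3, and 678 rose and 882 fell without vehicle A replicate 1. At the low dose 0 genes passed (0%) in edgeR, 470 of 13131 had an unadjusted p under 0.05, and DESeq2's Wald test called 1. The low dose libraries differed more among themselves than the medium dose libraries. The chi-square per degree of freedom between pairs was 5.26 to 15.5 at the low dose and 2.02 to 5.23 at the medium dose. In vehicle A it was 3.42 to 8.05. The 0 calls therefore do not show that no gene changed at the low dose. The median log2 fold change over all genes tested was 0.00141 at the medium dose.

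**Figure D1:**
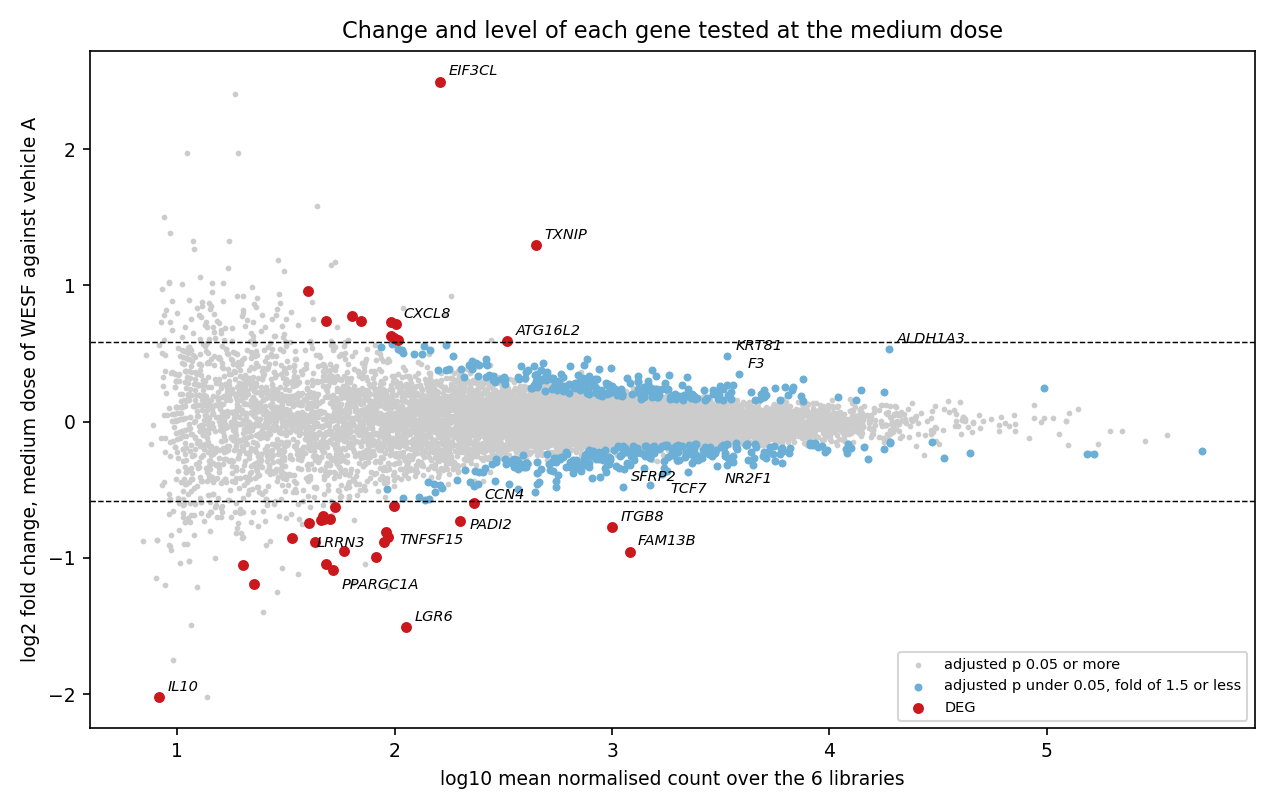
Each point is 1 of the 13112 genes tested, with the log10 mean normalised count over the 6 libraries on the x axis and the log2 fold change of the medium dose of WESF against vehicle A on the y axis. Dashed lines mark a fold of 1.5, and most of the 36 DEGs (red) lie below 100 normalised counts, while TXNIP, ITGB8 and FAM13B stand well above that level.

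In the first principal component of the 12 libraries of batch A (84.3% of the variance over 10928 genes), the vehicle libraries lay at -14.75 to -14.05 and the low dose libraries at -14.32 to -13.41, which overlap. The medium dose libraries lay apart from both, at -8.53 to -7.74, and the high dose libraries at 35.69 to 37.06. In the second component (3.72% of the variance) vehicle A replicate 1 lay at 1.69, beside WESF medium replicate 1 at 1.91. Vehicle A replicates 2 and 3 lay at -5.70 and -8.31, and WESF medium replicates 2 and 3 at 7.45 and 7.80.

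The genes that changed first at the medium dose were taken as the DEGs against vehicle A that also differed from the low dose with an adjusted p under 0.05 (edgeR, 13038 genes tested, of which 0.936% passed). There were 7: TXNIP and CXCL8 rose, and ITGB8, TNFSF15, LRRN3, FAM13B and LGR6 fell. Against the low dose the edgeR adjusted p was 6.37e-06 for TXNIP and FAM13B, 0.000156 for LGR6 and 0.00138 for ITGB8. It lay just under the threshold for LRRN3 (0.0415), CXCL8 (0.044) and TNFSF15 (0.048). The fit against the low dose was unstable, with 8 DEGs in edgeR and 2 with DESeq2. Without WESF medium replicate 3 it gave 4, of which 3 were among the 8, and without WESF low replicate 3 it gave 23. Membership of the 7 therefore depends on the fit, least securely for these last genes. The comparisons against vehicle A and against the low dose share the medium dose libraries, so the second is part of how these genes were chosen and not a repeat.

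TXNIP (ENSG00000265972, GRCh38 chromosome 1, 145992435 to 145996579, minus strand) had 10.5, 9.99 and 10.2 CPM in vehicle A, 11.2, 9.60 and 11.7 CPM at the low dose and 23.7, 23.8 and 27.8 CPM at the medium dose. CPM are counts scaled to library size, here with TMM factors over batch A. All 3 medium dose libraries were above every vehicle and low dose library, whose ranges overlap. The log2 fold change against vehicle A was 1.3 ± 0.08 (SE, n = 3 against 3, edgeR adjusted p = 5.73e-07), and against the low dose 1.22 ± 0.09 (edgeR adjusted p = 6.37e-06). At the low dose it was 0.08 ± 0.09. At the high dose TXNIP reached 359 to 368 CPM.

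FAM13B (ENSG00000031003, chromosome 5, 137937960 to 138051961, minus strand), a member of a RhoGAP domain family, had the same adjusted p as TXNIP in the other direction. Its level was 62.2, 62.4 and 64.6 CPM in vehicle A, 58.4, 55.6 and 59.8 CPM at the low dose and 34.3, 33.7 and 29.6 CPM at the medium dose. All 3 low dose libraries were under the vehicle libraries (log2 fold change -0.12 ± 0.05, SE), and the medium dose libraries were far under both. The log2 fold change at the medium dose was -0.95 ± 0.06 (SE, n = 3 against 3, edgeR adjusted p = 5.73e-07). At the high dose it had 17.6 to 19 CPM.

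LGR6 (ENSG00000133067, chromosome 1, 202193799 to 202319781, plus strand), a receptor for R-spondins that strengthens WNT signalling, showed the largest fall among the 7. It had 6.23, 6.16 and 7.46 CPM in vehicle A, 5.73, 6.16 and 6.49 CPM at the low dose and 2.39, 2.03 and 2.52 CPM at the medium dose. The vehicle and low dose libraries interleaved and the medium dose libraries lay far under both. The log2 fold change against vehicle A was -1.51 ± 0.14 (SE, n = 3 against 3, edgeR adjusted p = 5.78e-05).

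ITGB8 (ENSG00000105855, chromosome 7, 20330702 to 20415754, plus strand), an integrin beta subunit that activates latent TGF-beta, had 45.0, 48.5 and 56.7 CPM in vehicle A, 44.5, 43.8 and 42.8 CPM at the low dose and 32.4, 29.6 and 25.8 CPM at the medium dose. The low dose libraries were all slightly under the vehicle libraries, and the medium dose libraries were under both groups. The log2 fold change against vehicle A was -0.77 ± 0.09 (SE, n = 3 against 3, edgeR adjusted p = 0.000577). Of 18 integrins tested ITGB8 alone passed, in a comparison where 2.2% of all genes fell.

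CXCL8 (ENSG00000169429, chromosome 4, 73740519 to 73743716, plus strand), the chemokine interleukin-8 that attracts neutrophils, had 2.60, 3.17 and 3.30 CPM in vehicle A, 2.63, 2.69 and 3.63 CPM at the low dose and 5.69, 4.45 and 4.77 CPM at the medium dose. Vehicle and low dose libraries overlapped, and the medium dose libraries were above all of them. The log2 fold change against vehicle A was 0.72 ± 0.14 (SE, n = 3 against 3, edgeR adjusted p = 0.0137), and at the low dose -0.02 ± 0.16. The call was lost without vehicle A replicate 2 or WESF medium replicate 3, with an adjusted p of up to 0.0642. CXCL8 reached 65.0 to 72.6 CPM at the high dose.

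TNFSF15 (ENSG00000181634, chromosome 9, 114784652 to 114806039, minus strand), a cytokine of the TNF family, had 4.53, 4.30 and 5.50 CPM in vehicle A, 3.98, 5.01 and 4.05 CPM at the low dose and 3.04, 2.20 and 2.68 CPM at the medium dose. LRRN3 (ENSG00000173114, chromosome 7, 111091006 to 111125454, plus strand), a leucine-rich repeat membrane protein of neural tissue, had 4.49, 4.34 and 4.91 CPM in vehicle A, 4.07, 3.68 and 4.44 CPM at the low dose and 2.30, 2.41 and 2.68 CPM at the medium dose. In both genes the medium dose libraries were the lowest and the vehicle and low dose libraries overlapped. The log2 fold changes against vehicle A were -0.85 ± 0.15 for TNFSF15 and -0.89 ± 0.13 for LRRN3 (SE, n = 3 against 3, edgeR adjusted p = 0.00842 and 0.00365). The TNFSF15 call was lost without WESF medium replicate 2 or replicate 3, with an adjusted p of up to 0.0545.

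**Figure D2:**
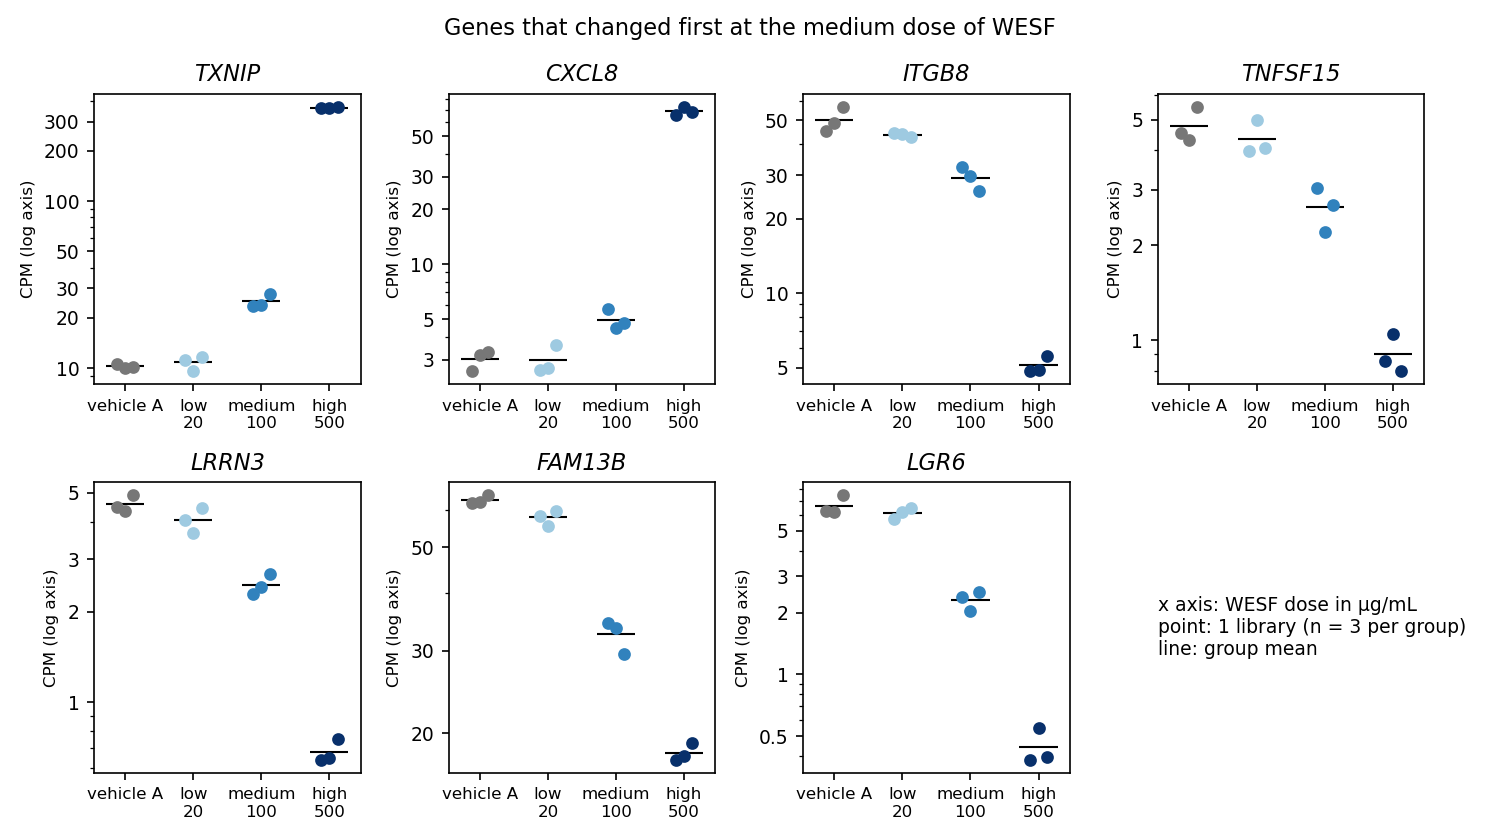
CPM (log axis) of the 7 genes that changed first at the medium dose, in each of the 12 libraries of batch A, by dose of WESF in µg/mL. Points are libraries and lines are means of 3. In each panel the medium dose libraries lie outside the range of the vehicle and low dose libraries, and the high dose libraries lie further out in the same direction.

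A wider set of genes met the same rule without the fold threshold. Of the 537 genes past an adjusted p of 0.05 against vehicle A, 105 (19.6%) also passed against the low dose, 36 of them up and 69 down, with a median absolute log2 fold change of 0.306. The 10 genes with the smallest adjusted p were all among them. Besides TXNIP, FAM13B, LGR6 and ITGB8 these were ALDH1A3, KRT81, SFRP2, TCF7, NR2F1 and F3, which are abundant genes with small and tightly measured changes.

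ALDH1A3, an aldehyde dehydrogenase that makes retinoic acid, had 607, 606 and 613 CPM in vehicle A, 657, 676 and 637 CPM at the low dose and 882, 883 and 872 CPM at the medium dose. The 3 groups did not overlap and stood in the order of dose. Its log2 fold change at the medium dose was 0.53 ± 0.04 (SE, n = 3 against 3, edgeR adjusted p = 2.50e-06), just under the fold threshold. KRT81, a hair keratin whose reads may be shared with close keratin paralogs, stood at 116, 109 and 109 CPM in vehicle A, at 127, 128 and 125 CPM at the low dose and at 150, 156 and 161 CPM at the medium dose, a log2 fold change of 0.48 ± 0.04. F3, tissue factor, the starter of blood clotting, stood at 137, 134 and 133 CPM in vehicle A, at 135, 144 and 136 CPM at the low dose and at 167, 167 and 179 CPM at the medium dose, a log2 fold change of 0.35 ± 0.04. The low dose libraries of KRT81 were all above its vehicle libraries, and those of F3 overlapped them.

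Among the genes that fell, SFRP2, a secreted modulator of WNT signalling, had 51.9, 51.8 and 51.8 CPM in vehicle A, 50.1, 48 and 45.5 CPM at the low dose and 38.82, 35.1 and 37.3 CPM at the medium dose. TCF7, a transcription factor at the end of the WNT pathway, had 75.6, 77.4 and 75.3 CPM in vehicle A, 73.5, 72 and 68.4 CPM at the low dose and 57.4, 57.1 and 60 CPM at the medium dose. In both genes the low dose libraries were all slightly under the vehicle libraries, and the medium dose libraries were well under both. The log2 fold changes were -0.48 ± 0.05 for SFRP2 and -0.39 ± 0.04 for TCF7 (edgeR adjusted p = 0.000235 and 0.000577). NR2F1, a nuclear receptor of neural development, fell by 0.33 on the log2 scale (edgeR adjusted p = 0.00124).

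Of the other 29 DEGs, 5 had a mean of 100 or more normalised counts. ATG16L2, a relative of the autophagy protein ATG16L1, had 10.9, 10.2 and 10.2 CPM in vehicle A and 13.2, 18.4 and 15.7 CPM at the medium dose, and it rose by 0.59 ± 0.10 on the log2 scale (edgeR adjusted p = 0.0069). GSDMB, a member of the pore-forming gasdermins, had 3.08, 2.7 and 4.01 CPM in vehicle A and 4.17, 5.55 and 5.05 CPM at the medium dose, with a log2 fold change of 0.60 ± 0.16 (edgeR adjusted p = 0.0466). The groups of GSDMB were barely separated. Without vehicle A replicate 2, WESF medium replicate 2 or WESF medium replicate 3 its call was lost, with an adjusted p of up to 0.207, and without vehicle A replicate 2 the call of ATG16L2 was lost too.

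PADI2, an enzyme that turns protein arginine into citrulline, had 9.61, 9.81 and 10.1 CPM in vehicle A, 8.44, 7.08 and 9.43 CPM at the low dose and 6.56, 6.14 and 5.13 CPM at the medium dose. It fell by 0.73 on the log2 scale at the medium dose (SE 0.10, n = 3 against 3, edgeR adjusted p = 0.0021), and the low dose libraries lay between the other groups without overlap. CCN4, a matrix protein induced by WNT, had 10.3, 10.2 and 12.8 CPM in vehicle A and 8.29, 6.65 and 6.97 CPM at the medium dose, a log2 fold change of -0.60 ± 0.11 (edgeR adjusted p = 0.00909). The CCN4 libraries of the 2 groups did not overlap, and the call was lost without WESF medium replicate 2 or replicate 3 (adjusted p of up to 0.0699). EIF3CL, a near-identical copy of the translation initiation factor gene EIF3C, had 3.79, 0 and 2.04 CPM in vehicle A and 3.21, 16.3 and 13.0 CPM at the medium dose, and was the 1 DEG whose groups overlapped. Reads of EIF3CL and EIF3C cannot be told apart with confidence, so its log2 fold change of 2.50 ± 0.58 is uncertain, and the call was lost without vehicle A replicate 2 or 3 or WESF medium replicate 2 or 3 (adjusted p of up to 0.509).

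The libraries of the 2 groups did not overlap in 35 of the 36 DEGs, against 24.6% of all genes tested. The DEGs were chosen on these libraries, so this is a description. The remaining DEGs were of low abundance, with 26 of the 36 under a mean of 100 normalised counts and IL10, an anti-inflammatory cytokine, the lowest at 8.27. IL10 had 0.594, 0.401 and 0.589 CPM in vehicle A and 0.217, 0.0847 and 0.0801 CPM at the medium dose. These are a handful of counts per library, and the call (log2 fold change -2.02, edgeR adjusted p = 0.0286) was lost with DESeq2 and without vehicle A replicate 2 or WESF medium replicate 2 or 3 (up to 0.153).

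Among the low-abundance DEGs that rose were SQOR, which oxidises sulfide in mitochondria (log2 fold change 0.73), ADSS1, an enzyme of AMP synthesis (0.62), GBP5, an interferon-inducible GTPase (0.74), HSF4, a heat shock transcription factor (0.74), PLPPR3, a phospholipid phosphatase-related membrane protein (0.78), and ACTC1, cardiac actin (0.96). KRTAP2-3 (0.63) belongs to a family of near-identical keratin-associated proteins, and ACTC1 shares sequence with other actins, so both are uncertain. The 7 calls had adjusted p of 0.0144 (PLPPR3) to 0.0493 (ADSS1) in edgeR, and all were lost without vehicle A replicate 2 or WESF medium replicate 3. Of the 13 alternatives, GBP5 lost its call in 10, ADSS1 in 7, HSF4 in 5, SQOR, PLPPR3 and ACTC1 in 3 each and KRTAP2-3 in 2, with adjusted p of up to 0.201 (ADSS1).

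Those that fell included PPARGC1A, the coactivator PGC-1alpha that drives mitochondrial biogenesis. It had 2.71, 2.85 and 2.87 CPM in vehicle A, 1.97, 2.15 and 2.09 CPM at the low dose and 1.35, 1.52 and 1.08 CPM at the medium dose. The 3 groups did not overlap and fell in the order of dose, with a log2 fold change of -1.09 ± 0.18 at the medium dose (SE, n = 3 against 3, edgeR adjusted p = 0.00595), and the call was lost without WESF medium replicate 3 (adjusted p = 0.0528). Others that fell were the chemokine-binding receptor ACKR1 (log2 fold change -1.19), the endothelial adhesion molecule PECAM1 (-1.05), the coxsackievirus and adenovirus receptor CXADR (-0.86), the innate immune receptor TLR6 (-0.72), the estrogen-binding receptor GPER1 (-0.71), the sodium channel subunit SCNN1A (-0.69) and the stromal glycoprotein CD248 (-0.62). PECAM1 had 8 to 31 counts per library, and the other endothelial markers CDH5 (0 to 1), CLDN5 (0 to 3) and VWF (1 to 7) were at or near 0. Summed over these 4 genes, mostly PECAM1, the level without TMM scaling was 1.13 to 1.26 CPM in vehicle A and 0.548 to 0.831 CPM at the medium dose. The adjusted p in edgeR was 0.0185 for ACKR1 and 0.0421 (TLR6) to 0.0458 (PECAM1) for the other 6. All 7 calls were lost without vehicle A replicate 2 or any 1 of the medium dose libraries, and 6 of them, ACKR1 excepted, also without vehicle A replicate 3. Of the 13 alternatives, GPER1 lost its call in 11, SCNN1A in 10, PECAM1 in 9, TLR6 and CXADR in 8 each, CD248 in 7 and ACKR1 in 6, with adjusted p of up to 0.194 (CXADR). TLR6 and CXADR have close relatives or pseudogene copies that could share their reads.

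The last DEGs that fell were ANK2, which anchors membrane proteins to the cytoskeleton (-0.95), TMEM170B (-0.88), SYT12, a synaptotagmin (-0.81), FMO5, a flavin monooxygenase (-0.74), and SAMD15 (-0.63). RBM14-RBM4 (-0.72) and CENPS-CORT (-1.04) are readthrough transcripts that overlap their parent genes, and PCDHGB1 (-0.99) shares exons with the rest of its protocadherin cluster, so these values depend on how reads were divided. SYT12 and PCDHGB1 kept an adjusted p under 0.05 in each of the 13 alternatives, and CENPS-CORT lost it only without WESF medium replicate 3 (0.062). FMO5, SAMD15 and RBM14-RBM4 lost it in 9 each, TMEM170B in 6 and ANK2 in 4, all 5 of them without vehicle A replicate 2 or 3 or WESF medium replicate 2 or 3 (up to 0.199, for SAMD15).

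At the low dose, 0 of the 36 passed an adjusted p of 0.05 in edgeR, the adjusted p was 0.999 for each, and the median log2 fold change was 0.15 for the 12 that rose and -0.20 for the 24 that fell at the medium dose. These values share the vehicle libraries on which the DEGs were chosen, so their direction is a description only. In 11 of the 36 DEGs the 3 low dose libraries were all on the medium dose side of the 3 vehicle libraries, which was so in 6.95% of all genes tested, and the shared vehicle libraries bear on this count too. FAM13B and ITGB8 were 2 of them, with an unadjusted p at the low dose of 0.034 and 0.019 in edgeR. The other 9, outside the first-changing set, were ACTC1, SAMD15, PADI2, SYT12, PCDHGB1, CENPS-CORT, PECAM1, PPARGC1A and ACKR1. The lowest unadjusted p at the low dose among these 9 was 0.00138, for PCDHGB1, with a log2 fold change of -0.54.

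**Figure D3:**
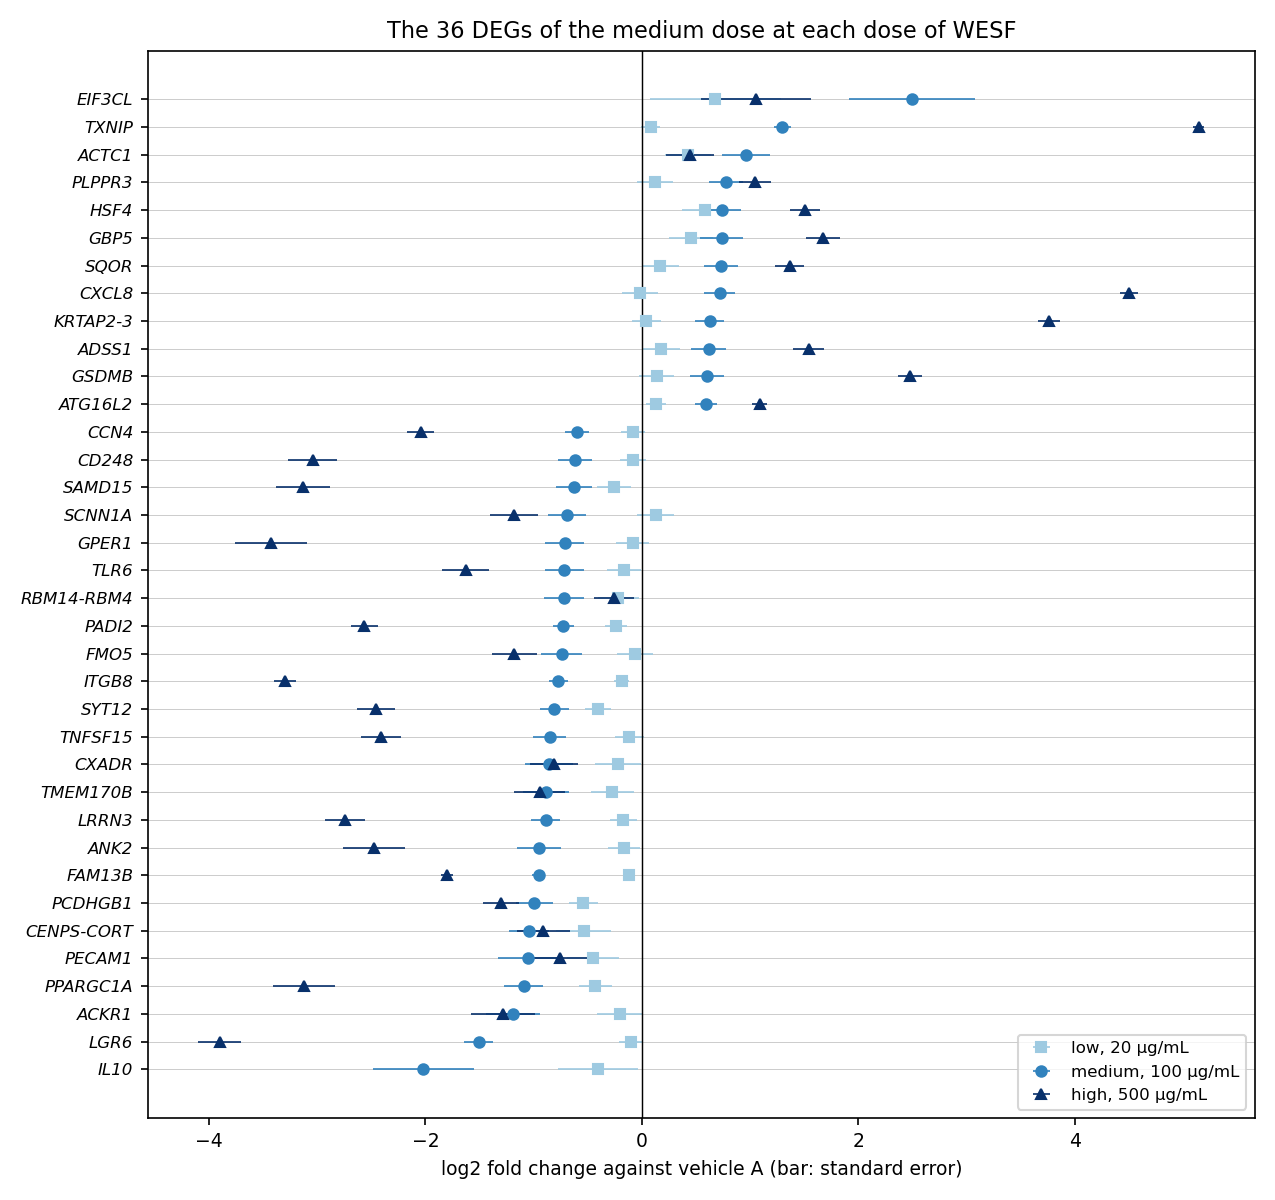
Log2 fold change against vehicle A of the 36 DEGs of the medium dose, at the low, medium and high dose of WESF (n = 3 libraries per group, bars are standard errors). The 3 doses share the same vehicle libraries. Low dose values lie nearest 0 in most genes, TXNIP and CXCL8 extend furthest to the right at the high dose and LGR6 furthest to the left, and IL10 had no value at the high dose.

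The high dose was set against the low dose, a comparison that shares no library with medium against vehicle A. Of the 12 DEGs that rose at the medium dose, 10 were also DEGs that rose between low and high dose, where 10.3% of all 13100 genes tested did so. Of the 23 that fell and were tested there, 20 were DEGs that fell, against 12.7% of all genes, and 0 of the 35 passed in the opposite direction. TXNIP had a log2 fold change of 5.06 between low and high dose, CXCL8 4.52, LGR6 -3.80 and ITGB8 -3.11. ACTC1, by contrast, had 0.02 ± 0.19 there: its CPM were 1.69, 2.46 and 2.08 at the medium dose and 1.46, 1.54 and 1.37 at the high dose, and the medium dose libraries were the highest of all doses.

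The 537 genes past an adjusted p of 0.05 mostly went on in the same direction. Of the 248 that rose, 205 also rose between low and high dose with an adjusted p under 0.05 (34.1% of all genes rose), and of the 288 tested that fell, 257 fell (34.1% of all genes fell). In 27 genes (5.04%) the sign was opposite with an adjusted p under 0.05. These included NQO1, a quinone-reducing enzyme of the NRF2 response, with 162, 158 and 161 CPM in vehicle A and 184, 190 and 183 CPM at the medium dose (log2 fold change 0.22 ± 0.04) and a log2 fold change of -0.44 between low and high dose. SCD, which puts the double bond into fatty acids, fell by 0.31 on the log2 scale at the medium dose and had 0.19 between low and high dose. ID3, an inhibitor of differentiation driven by BMP signals, had 0.25 and -0.77. SAMD11, a SAM domain protein, had the widest swing of the 27, with 0.27 at the medium dose and -2.38 between low and high dose.

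Gene lists were used to ask which functions held the genes that changed. Their counts are to be read against all genes tested, of which 1.89% rose and 2.2% fell. Those shares and the list counts come from the reported fit, and the shares moved many-fold with single libraries left out. In the list around TXNIP and its regulators, 3 of 14 genes tested rose and 1 fell. Besides TXNIP these were ARRDC4, an arrestin-domain relative of TXNIP, with 5.16, 6.64 and 4.67 CPM in vehicle A and 8.12, 7.88 and 8.37 CPM at the medium dose, HK2, hexokinase 2, the first step of glucose use, with 57.3, 56.7 and 58.1 CPM in vehicle A and 64.3, 66.5 and 67.2 CPM at the medium dose, and ARRDC3, which fell by 0.20 on the log2 scale. In ARRDC4 and HK2 all medium dose libraries were above all vehicle libraries. The log2 fold changes were 0.56 ± 0.12 and 0.20 ± 0.04 (edgeR adjusted p = 0.0193 and 0.0191). The list's median was -0.01, with values from -0.20 to 1.3. The calls of ARRDC4 and HK2 were lost without WESF medium replicate 2 or replicate 3, with adjusted p of up to 0.105 and 0.126, and that of ARRDC4 also without vehicle A replicate 3, that of HK2 also without vehicle A replicate 2. ARRDC3 lost its call without vehicle A replicate 2 or 3 or WESF medium replicate 2 or 3 (up to 0.129).

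A minority of the genes of sugar and oxygen metabolism changed, with small folds. Of 24 glycolysis and glucose uptake genes, 4 rose and 0 fell: the enolase ENO2 (log2 fold change 0.24), the aldolase ALDOC (0.42), HK2 and the phosphofructokinase PFKP (0.19). Of 19 hypoxia response genes 5 rose, among them LOX, which crosslinks collagen (0.26), NDRG1 (0.24) and the angiogenic factor VEGFA (0.19), while STC1 fell by 0.21. Angiopoietin-like ANGPTL4 (0.33) rose and is in both the hypoxia list and the list of PPAR targets and fatty acid oxidation, where the lipid droplet protein PLIN2 (0.24) and the dehydrogenase ACADVL (0.20) rose as well and PPARGC1A fell (3 of 20 rose and 1 fell). The medians of the 3 lists were 0.04, 0.08 and 0.03. LOX kept an adjusted p under 0.05 without any single library, with a highest value of 0.0482, while ENO2, ALDOC, NDRG1 and VEGFA lost it without vehicle A replicate 2, WESF medium replicate 2 or WESF medium replicate 3 (highest values 0.069, 0.0812, 0.0738 and 0.0961). PFKP, STC1, ANGPTL4, PLIN2 and ACADVL lost it without those same 3 libraries and some without a further one, with adjusted p of up to 0.177 (ACADVL).

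A minority of lipid synthesis genes fell. Of 24 cholesterol synthesis genes 0 rose and 4 fell, among them the final enzyme DHCR7 (log2 fold change -0.23), the cyclase LSS (-0.19) and the regulator SREBF2 (-0.16). Of 15 fatty acid synthesis genes 0 rose and 2 fell, the desaturases FADS2 (-0.34) and SCD (-0.31). FADS2 had 76.6, 76.3 and 77.3 CPM in vehicle A and 60.8, 63.6 and 57.5 CPM at the medium dose, without overlap, and kept an adjusted p under 0.05 without any single library. DHCR7 lost its call without vehicle A replicate 2, WESF medium replicate 2 or WESF medium replicate 3 (highest value 0.126), as did SCD (0.0787), LSS (0.162) and SREBF2 (0.209), the last 2 of these also without WESF medium replicate 1 and SREBF2 without vehicle A replicate 3. The medians of the 2 lists were -0.08 and -0.04.

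Lists of stress responses were read next, against 1.89% of all genes rising. Of 29 NRF2 targets 5 rose and 0 fell: NQO1, OSGIN1 (log2 fold change 0.30), thioredoxin reductase TXNRD1 (0.16), sulfiredoxin SRXN1 (0.17) and transketolase TKT (0.16). The list's median was 0.04. Of 33 ATF4 targets 2 rose, the asparagine synthetase ASNS (0.28) and the lipoprotein receptor VLDLR (0.29), and of 11 genes of the AHR and xenobiotic list ALDH1A3 and NQO1 rose. NQO1, OSGIN1 and TXNRD1 lost an adjusted p under 0.05 without vehicle A replicate 2, WESF medium replicate 2 or WESF medium replicate 3 (highest values 0.0688, 0.147 and 0.172), and OSGIN1 and TXNRD1 also without either vehicle A replicate 3 or WESF medium replicate 1. SRXN1 and TKT kept theirs only without vehicle A replicate 1 among the libraries left out (up to 0.198 and 0.204), and ASNS and VLDLR lost theirs without vehicle A replicate 2 (ASNS also without WESF medium replicate 3, up to 0.0679 and 0.0676). In the heat shock protein list (19 tested), the lysosome list (32), the proteasome list (39), the aminoacyl-tRNA synthetase list (21) and the G2/M and spindle list (28), 0 genes rose and 0 fell. The ER chaperone list had 1 of 25 that rose (ERO1B, 0.28), the p53 list 1 of 24 (GADD45A, 0.25) and the DNA replication list 1 of 31 (CDC45, 0.23), and all 3 of these lost their calls without vehicle A replicate 2 or 3 or WESF medium replicate 1 or 3, ERO1B and CDC45 also without WESF medium replicate 2 (up to 0.157, 0.12 and 0.129).

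Secreted signals changed in both directions. Of 19 inflammatory cytokines and chemokines tested, CXCL8, IL1B and CSF1 rose and CCL2 fell. IL1B, an early inflammatory cytokine, had 3.12, 3.21 and 3.93 CPM in vehicle A, 4.86, 3.78 and 4.57 CPM at the low dose and 5.25, 5.04 and 4.49 CPM at the medium dose. Its low dose libraries reached the medium dose range, and the log2 fold change at the medium dose was 0.53 ± 0.13 (edgeR adjusted p = 0.0395), lost without vehicle A replicate 2 or any 1 of the medium dose libraries (adjusted p of up to 0.164) and with DESeq2. CCL2, a monocyte chemokine, had 11.1, 9.88 and 11.0 CPM in vehicle A and 7.03, 8.51 and 7.49 CPM at the medium dose, without overlap, and fell by 0.47 on the log2 scale (edgeR adjusted p = 0.0133, 0.0849 without WESF medium replicate 3). Of 24 interferon-stimulated genes 1 fell (IFI44L, -0.25). JUN was the 1 of 22 AP-1, EGR and MYC genes that rose (0.19). Among 19 MAPK feedback genes the phosphatase DUSP1 rose (0.32), and DUSP4 (-0.20) and SPRED2 (-0.22) fell. DUSP1 kept an adjusted p under 0.05 without any single library, while CSF1, IFI44L, JUN, DUSP4 and SPRED2 each lost it without vehicle A replicate 2, WESF medium replicate 2 or WESF medium replicate 3 and most without a further library (up to 0.16, for CSF1).

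Of 28 TGF-beta and BMP genes, 3 rose and 5 fell. Among those that rose were ID1 (0.31) and ID3, and among those that fell were the ligands BMP4 (-0.46) and TGFB3 (-0.33), smooth muscle actin ACTA2 (-0.24) and PMEPA1 (-0.24). Of 22 YAP/TAZ targets 3 rose and 0 fell, namely F3, CCN1 (0.23) and NT5E (0.16). Of the 24 collagens in the list 1 fell (COL12A1, -0.23). COL14A1, a collagen gene outside that list, fell too (log2 fold change -0.49 ± 0.08, edgeR adjusted p = 0.00499). It had 16.4, 16.6 and 18.3 CPM in vehicle A and 13.0, 12.5 and 11.0 CPM at the medium dose. Of 23 matrix proteases and inhibitors 1 rose and 1 fell, the latter MMP16, a membrane-bound metalloproteinase, which fell by 0.37 on the log2 scale. PMEPA1 and F3 kept an adjusted p under 0.05 without any single library, and COL14A1 was not followed with libraries left out. Without WESF medium replicate 3 the other calls named here were lost, and most also without vehicle A replicate 2 or WESF medium replicate 2, with adjusted p of up to 0.225 (COL12A1).

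The astrocyte list and some lists of signalling and transport followed. Of 11 astrocyte and neural stem genes tested 0 rose and 3 fell: SLC1A3 (log2 fold change -0.36), the NOTCH target HES1 (-0.29) and SOX9 (-0.24). SLC1A3 had 31.2, 34.0 and 30.9 CPM in vehicle A, 30.7, 28.5 and 29.4 CPM at the low dose and 23.9, 25.0 and 25.8 CPM at the medium dose. All low dose libraries were under all vehicle libraries and the medium dose libraries were lower still, and SLC1A3 kept an adjusted p under 0.05 without any single library. Summed over the 8 astrocyte markers, mostly GJA1, the level was 301 to 317 CPM without TMM scaling in vehicle A and 290 to 301 CPM at the medium dose. GJA1 itself had a log2 fold change of 0.01 (edgeR adjusted p = 0.919). The summed level of the 6 oligodendrocyte lineage markers, mostly CSPG4, was 205 to 209 CPM in vehicle A and 228 to 241 CPM at the medium dose, and CSPG4, a surface proteoglycan, rose by 0.18 on the log2 scale (edgeR adjusted p = 0.0216). PDGFRA of the same list did not pass, with 19.6, 18.6 and 20.8 CPM in vehicle A and 17.8, 16.9 and 16.3 CPM at the medium dose (log2 fold change -0.23, edgeR adjusted p = 0.0631). Of the neuron markers SYT1, a calcium sensor of synaptic vesicles, had 22.6, 25.3 and 25.8 CPM without TMM scaling in vehicle A and 18.3, 18.2 and 17.2 CPM at the medium dose, without overlap, and fell by 0.48 on the log2 scale (edgeR adjusted p = 0.00229). The summed level of the 6 neuron markers, mostly TUBB3, was 154 to 160 CPM in vehicle A and 161 to 164 CPM at the medium dose. The microglia and macrophage markers, mostly CD68, summed to 185 to 195 CPM in vehicle A. At the medium dose they summed to 197 to 206 CPM, without overlap. CD68 itself did not pass (log2 fold change 0.08, edgeR adjusted p = 0.297). PTPRC (-0.22) and CSF1R (-0.21) had negative values and did not pass either. Of 22 FOXO and insulin signalling genes 4 fell, including IRS1, the insulin receptor substrate (-0.28), FOXO1 (-0.28) and CITED2 (-0.27), and IGFBP3 rose (0.18). The amino acid transporters SLC36A1 (-0.28) and SLC38A1 (-0.23) fell (3 of 23 with SLC1A3), as did HTR2A, a serotonin receptor (-0.51, 1 of 9 receptors tested), and the heparan sulfate enzymes NDST1 (-0.20) and GLCE (-0.23), 2 of 18. The circadian repressor BHLHE41 (-0.25, 1 of 19) and the zinc and iron importer SLC39A14 (-0.17, 1 of 7 in the zinc list and 1 of 13 in the iron list) fell too. Apart from SLC1A3, and from CSPG4, PDGFRA and SYT1, for which no library was left out, the genes named here as changed lost their calls without vehicle A replicate 2, and most also without WESF medium replicate 2 or replicate 3, with adjusted p of up to 0.231 (FOXO1).

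**Figure D4:**
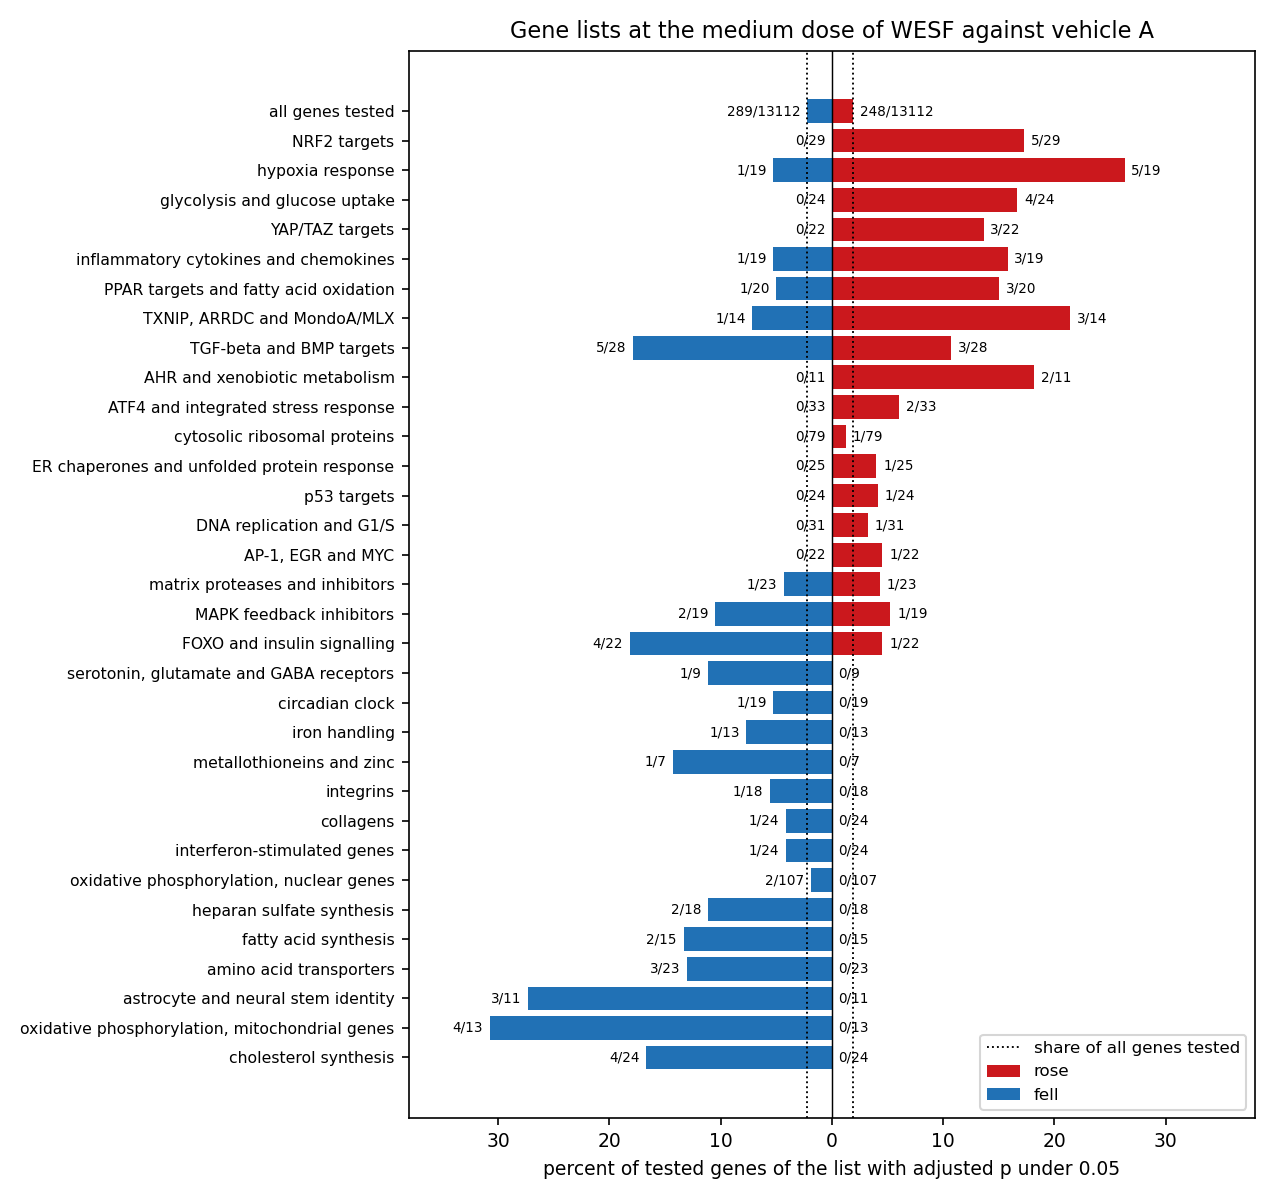
For each list, the percent of its tested genes that passed in edgeR (adjusted p under 0.05) when WESF medium was set against vehicle A, fallen genes to the left and risen genes to the right, with the counts beside the bars. Dotted lines mark the share of all genes tested, 2.2% falling and 1.89% rising. Lists in which 0 genes passed are not drawn, and several lists share members.

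The genes of oxidative phosphorylation (OXPHOS) were read as a nuclear and a mitochondrially encoded list. The members are those of a public pathway set that the study used, and the pathway was singled out there from tests on these same libraries, so its choice is not independent evidence of a direction. Of 107 nuclear genes tested 0 rose and 2 fell, the proton pump subunits ATP6V0E2 (log2 fold change -0.34) and ATP6V1C1 (-0.24), which belong to the lysosomal V-ATPase and not to the respiratory chain, which is near the 2.2% of all genes that fell, and the median was 0.02. Of the 13 mitochondrially encoded genes 0 rose and 4 fell (MT-ND2, MT-ND4L, MT-CYB and MT-CO1), with a median of -0.18 and a highest value of -0.07. MT-CO1, a core subunit of complex IV, had 22081, 21998 and 22113 CPM in vehicle A, 23923, 20531 and 16069 CPM at the low dose and 21213, 17700 and 18061 CPM at the medium dose. The spread among low dose libraries was wider than the gap between vehicle and medium dose. The share of all counts from mitochondrial genes was 10.3%, 10.4% and 10.6% in vehicle A, 10.1%, 8.73% and 8.96% at the medium dose and 8.5% to 11.4% at the low dose. The calls of MT-CO1, MT-ND2, MT-ND4L and MT-CYB were each lost without vehicle A replicate 2 or 3 or WESF medium replicate 2 or 3 (adjusted p of up to 0.272, for MT-ND2). ATP6V1C1 lost its call without vehicle A replicate 2 or WESF medium replicate 2 or 3 (up to 0.0694), and ATP6V0E2 kept it. Of 79 cytosolic ribosomal protein genes 1 rose (RPS19, 0.23), with a list median of 0.08, and its call was kept only without vehicle A replicate 1 when 1 library was left out (up to 0.207).

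The 7 first-changing genes were also read in the ethanol extract, where the dose (62 µg/mL), the batch and the vehicle differ, so values are given side by side only. At the medium dose of EESF the log2 fold changes were 0.47 ± 0.09 for TXNIP, 0.57 ± 0.15 for CXCL8, -0.57 ± 0.05 for FAM13B, -0.55 ± 0.06 for ITGB8, -0.71 ± 0.14 for LGR6, -0.46 ± 0.14 for TNFSF15 and -0.48 ± 0.13 for LRRN3 (SE, n = 3 against 3 libraries of vehicle B).

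The number of DEGs rested on single libraries. It was 9 without WESF medium replicate 3, 17 without vehicle A replicate 2 and 61 without vehicle A replicate 1, and DESeq2's Wald test gave 23 on all 6. The genes that kept an adjusted p under 0.05 in each of the 13 alternatives numbered 8 of the 36: TXNIP rose, and FAM13B, LGR6, ITGB8, PADI2, LRRN3, SYT12 and PCDHGB1 fell.

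**Figure D5:**
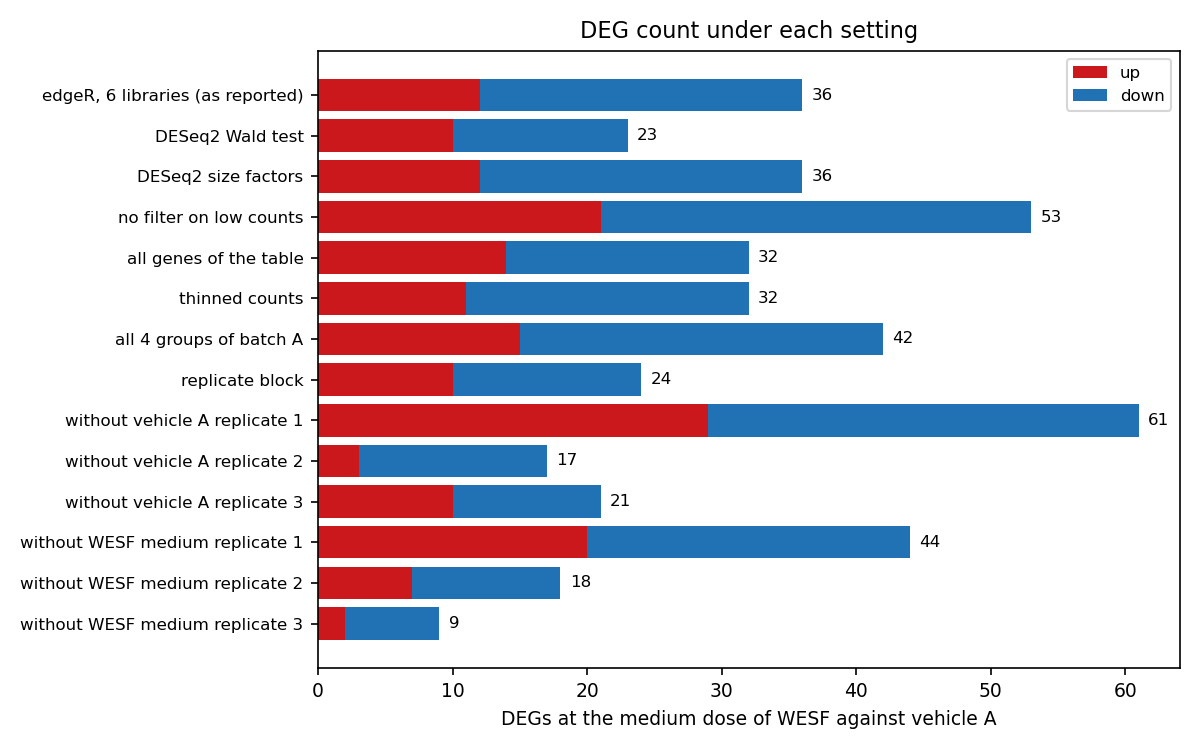
Number of DEGs at the medium dose of WESF against vehicle A in the reported fit and under each alternative, split into genes that rose (red) and fell (blue). The count lies between 9 and 61, lowest without WESF medium replicate 3 and highest without vehicle A replicate 1.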

How the data were processed

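RNA was sequenced from SW1783 cells as 100-base paired reads from a directional kit. The authors' deposited table holds expected counts per gene, made with FastQC 0.11.9, Trim Galore 0.6.6, STAR 2.7.9a and RSEM 1.3.3 on GRCh38 according to the submitters' processing notes. The methods also name hg19, and whether reads were counted by strand is not given in the sources used here. In the table, 10.9% of the values were not whole, and they were rounded to whole counts here. Of 60675 genes, 56558 matched GENCODE 44, whose coordinates are printed, and 19586 were protein-coding.

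Genes that passed filterByExpr were tested between 2 groups with edgeR 4.0.16 (TMM, quasi-likelihood F test, Benjamini-Hochberg adjustment) in R 4.3.3. SE is the log2 fold change divided by the square root of F. DEGs needed an adjusted p under 0.05 and a fold above 1.5 (log2 0.585). The study used DESeq2, which here (1.42.0) is an alternative, as are other size factors, no filter, all genes, thinned counts, all 4 groups, the replicate number as a block and each library left out.

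The members and gene lists were chosen with earlier results of these data known. Named genes were all DEGs, the 10 smallest adjusted p, and in each list up to 4 genes with the smallest adjusted p. TKT, ID3, BMP4, ACTA2, FOXO1, COL14A1, CSPG4, PDGFRA, SYT1, CD68, PTPRC, CSF1R and SAMD11 fall outside this rule and were named after their values were seen. A few list members are not reported here. Library values are given for DEGs with a mean of 100 or more normalised counts and for those that changed first. In counts simulated for this comparison (13030 genes), edgeR called 93.9% of 99 genes changed by a log2 of 1 and 100% of 99 changed by 2, with 5 false among 197 calls. The simulated counts were drawn independently in each library and held no planted change under a log2 of 1. These shares therefore do not carry over to smaller changes or to shifts of whole libraries. Figures were drawn with matplotlib 3.10.9.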

Additional observations from a re-analysis of the deposited data

How the results depend on the processing

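With DESeq2's Wald test the DEGs numbered 23 at the medium dose, 1 at the low dose and 2 between medium and low dose, where edgeR gave 36, 0 and 8. Without the filter on low counts the medium dose gave 53, the low dose 3 and medium against low 24, and with all genes of the table medium against low gave 4. Leaving out 1 library at a time gave 9 to 61 DEGs at the medium dose, 72 to 1560 genes past an adjusted p of 0.05, 0 to 1 DEGs at the low dose and 4 to 23 between medium and low dose, and the cause was not tested. The 9 without WESF medium replicate 3 were all among the 36, as were 31 of the 61 without vehicle A replicate 1. Past an adjusted p of 0.05 there were 98 genes without vehicle A replicate 2, 254 without vehicle A replicate 3 and 123 without WESF medium replicate 2. DEGs between high and low dose ranged from 2853 to 3909 over its alternatives.

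Vehicle and medium dose libraries of the same replicate number did not deviate together (r across genes of -0.30, -0.19 and -0.18). Pairs with different numbers had r of -0.11 to 0.28. Whether libraries of the same number shared a batch or an order of processing was not tested. With the replicate block, 24 DEGs and 185 genes past an adjusted p of 0.05 were found at the medium dose, 10 DEGs between medium and low dose and 0 at the low dose. Among 1764 values of 136 named genes over the alternatives, 0 turned in sign, and 21 genes had an adjusted p under 0.05 in each. The alternatives reuse the libraries on which most of these genes were picked, so the kept sign is a description only. Of the 36 DEGs, 26 had a mean under 100 normalised counts, where the depth limits the precision most.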

Other observations

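Genes that do not code for protein were left out of the comparisons above. In a fit of all 15968 genes that passed the filter, 2689 were of other kinds, of which 14 rose and 11 fell at the medium dose with an adjusted p under 0.05 (edgeR), which is 0.521% and 0.409% of them, against 1.25% and 1.46% of all genes in that fit. Levels here are without TMM scaling. The noncoding genes named in this section were not followed with libraries left out. The mitochondrial ribosomal RNA MT-RNR2 had 12240, 12730 and 12890 CPM in vehicle A and 10260, 9370 and 9444 at the medium dose, and fell by 0.40 on the log2 scale (edgeR adjusted p = 0.000966). The groups did not overlap, and MT-RNR1 fell by 0.22.

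Among long noncoding RNAs, GAS5, which hosts small nucleolar RNAs and builds up when growth slows, had 59.5, 48.0 and 53.9 CPM in vehicle A and 67.5, 70.3 and 68.4 at the medium dose (log2 fold change 0.33, edgeR adjusted p = 0.0166). MEG3, an imprinted RNA, had 728, 708 and 725 in vehicle A and 822, 992 and 899 at the medium dose (0.30). In both the medium dose libraries were above all vehicle libraries. LINC01963 showed one of the clearest falls, with 9.23, 7.94 and 9.34 in vehicle A and 5.06, 5.74 and 5.42 at the medium dose (log2 fold change -0.73, edgeR adjusted p = 0.00305). ALDH1A3-AS1, antisense to ALDH1A3, rose by 0.31 on the log2 scale, and without a stated strand setting its reads and those of ALDH1A3 cannot be told apart with confidence.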
